A study of Mus musculus with 12 samples.

Results

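The 10 genes described here encode the NF-kB subunits and proteins that are grouped here as inhibitors. They are Nfkb1, Nfkb2, Rel, Rela and Relb for the subunits and Nfkbia, Nfkbid, Nfkbie, Nfkbiz and Tnfaip3 for the inhibitors. They were taken by gene name from 24439 gene names with a value in every library, and all 10 were among the 12442 genes that passed a filter on low values and were tested.

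NF-kB factors are dimers of Rel-homology proteins that bind kappaB sites in DNA. In resting cells IkappaB proteins keep many of these dimers in the cytoplasm, and signals from the T cell receptor activate the IkappaB kinase, which marks the IkappaB proteins for degradation and frees the dimers. Several of the genes that NF-kB activates encode its own subunits and inhibitors, so the pathway feeds back on itself, and c-Rel is known for its part in cytokine gene activation in T cells.

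Strand-specific RNA-Seq had been done on cultured CD4 T cells, isolated with CD4 microbeads from the spleen of C57BL/6 C42 mice, a line that carries a human transgene fragment with the IL3 and CSF2 genes. All cells were first activated with the lectin ConA at 2 ug/ml for 40 h and then grown in IL-2 at 50 U/ml, a state called T blast cells (TB). They were then kept for a further 16 h with IL-2 (TB IL-2) or without it (TB IL-2nil), and each culture was harvested directly or after 2 h with PMA at 20 ng/ml and the calcium ionophore A23187 at 2 uM (PMA/I), which gave TB+ IL-2 and TB+ IL-2nil. PMA and ionophore mimic signals of the T cell receptor without a receptor ligand. Each of the 4 groups had 3 libraries. The labels do not say that libraries of a group came from separate animals, so p-values measure the spread between these libraries, which may in part be technical. Age and sex of the mice are not given in the labels.

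The libraries labelled TB IL-2nil replicate 3 and TB+ IL-2 replicate 3 hold each other's values in the expression table that accompanies the study. Here each was placed in the other's group, as that table has it, and the results with the sample labels as they stand and without both libraries are given beside each comparison. In the text, values of a group follow the library numbers 1, 2 and 3, so that the third value of TB IL-2nil comes from the library labelled TB+ IL-2 replicate 3 and the third value of TB+ IL-2 from the library labelled TB IL-2nil replicate 3. Which of the labels and the table is right was not tested. As placed, 9 early response genes that serve as a check of the stimulation, among them Il2, Fos and Egr1, summed to 116 to 472 TPM in the 6 unstimulated libraries and to 8204 to 19096 TPM in the 6 PMA/I libraries. This sum was 8204 TPM, with Il2 at 3539 TPM, in the library labelled TB IL-2nil replicate 3. It was 377 TPM, with Il2 at 0.997 TPM, in the library labelled TB+ IL-2 replicate 3.

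Levels are given as scaled TPM, written TPM below, which are corrected for gene length, so that levels of different genes can be set side by side. The deposited FPKM values summed to between 193815 and 420487 a library. They were turned into TPM, and libraries were then matched on their upper quartile, so that scaled values are no longer shares of all transcripts. This multiplied TPM by 0.746 to 1.28 in TB IL-2, 0.716 to 1.03 in TB IL-2nil, 0.952 to 1.07 in TB+ IL-2 and 1.06 to 1.72 in TB+ IL-2nil. The steps between low values gave a depth 3.04 times higher in the deepest than in the shallowest library. The T cell markers Cd3e, Cd4, Cd28 and Lck summed to 871 to 894 TPM in TB IL-2, 1312 to 1417 TPM in TB IL-2nil, 825 to 1011 TPM in TB+ IL-2 and 1114 to 1407 TPM in TB+ IL-2nil. The 4 B cell markers summed to 5.94 to 10.4 TPM in TB IL-2, 23.2 to 29.6 TPM in TB IL-2nil, 2.36 to 3.31 TPM in TB+ IL-2 and 5.49 to 12.7 TPM in TB+ IL-2nil, and all 4 were higher in TB IL-2nil than in TB IL-2 by the test used below. Sums were at most 31.9 TPM for the 2 CD8 T cell markers, 9.51 TPM for the 2 regulatory T cell markers and 4.88 TPM for the 3 myeloid markers that were kept. None of the 3 NK cell markers was kept, Csf1r and Lyz2 were not kept either, and Ncr1 was listed at 0 in all 12 libraries. The part of these markers in the differences between groups was not tested. In bulk RNA, fewer cells of a type and less RNA per cell cannot be told apart.

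Promoter sequence was available for 7 of the 10 genes, as 12 windows of 250 bases before to 50 bases after a RefSeq start (GRCm38.p6). Nfkb1, Relb and Nfkbiz had no window in this set. A 10-base kappaB consensus, searched on both strands, was found in 8 of the 12 windows, against 8.46% of all 32841 windows of this length. These 8 windows belong to 6 of the 7 genes, and a gene with several windows has more room for a match. Windows 2 and 3 of Nfkb2 overlap, and the match GGGACTTTCC in both is the same site. Windows 1 and 3 of Nfkbid and window 2 of Tnfaip3 held no kappaB match. The AP-1 motif TGANTCA was found in 3 windows of 3 genes, against 7.81% of all windows. The windows printed here hold kappaB matches and were chosen because their genes span the responses described below, from the subunit and the inhibitor with the largest changes after PMA/I (Rel and Nfkbid) to both inhibitors that differed most between unstimulated libraries (Nfkbia and Tnfaip3). Capitals mark motif matches, and no kappaB match overlapped an AP-1 match. They read 5′ to 3′ on the strand of the gene. The Rel window lies at chr11:23770920-23771219 on the minus strand, the Nfkbid window at chr7:30422156-30422455 on the plus strand, the Nfkbia window at chr12:55492598-55492897 on the minus strand and the Tnfaip3 window at chr10:19015361-19015660 on the minus strand.
Rel: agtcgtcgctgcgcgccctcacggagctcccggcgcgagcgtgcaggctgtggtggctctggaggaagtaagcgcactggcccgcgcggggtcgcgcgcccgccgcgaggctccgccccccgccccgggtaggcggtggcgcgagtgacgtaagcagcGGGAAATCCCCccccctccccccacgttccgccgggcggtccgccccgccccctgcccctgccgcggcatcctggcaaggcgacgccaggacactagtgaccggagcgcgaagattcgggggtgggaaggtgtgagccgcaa
Nfkbid: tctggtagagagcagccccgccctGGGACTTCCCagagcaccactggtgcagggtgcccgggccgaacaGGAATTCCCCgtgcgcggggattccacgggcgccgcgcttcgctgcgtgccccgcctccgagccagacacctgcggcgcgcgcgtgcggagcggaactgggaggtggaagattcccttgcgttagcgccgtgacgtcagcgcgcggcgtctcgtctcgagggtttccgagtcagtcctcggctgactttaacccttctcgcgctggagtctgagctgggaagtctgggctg
Nfkbia: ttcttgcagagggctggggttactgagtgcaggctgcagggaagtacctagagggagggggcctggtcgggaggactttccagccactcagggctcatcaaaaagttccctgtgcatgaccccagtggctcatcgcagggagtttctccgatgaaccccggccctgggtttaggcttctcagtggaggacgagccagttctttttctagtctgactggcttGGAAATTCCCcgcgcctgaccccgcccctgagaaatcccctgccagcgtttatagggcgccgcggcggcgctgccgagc
Tnfaip3: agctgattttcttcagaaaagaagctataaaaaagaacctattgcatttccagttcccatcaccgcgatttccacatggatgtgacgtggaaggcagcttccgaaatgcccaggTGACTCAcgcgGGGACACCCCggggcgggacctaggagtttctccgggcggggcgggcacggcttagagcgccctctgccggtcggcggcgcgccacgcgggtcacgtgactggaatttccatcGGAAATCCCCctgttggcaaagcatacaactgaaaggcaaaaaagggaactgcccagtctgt
The Rel window holds a run of 11 bases with overlapping matches, GGGAAATCCCC, and the Nfkbid window holds GGGACTTCCC and GGAATTCCCC. In the Nfkbia window the match GGAAATTCCC begins at position -29 from the start. The Tnfaip3 window holds GGGACACCCC and GGAAATCCCC, of which the latter begins at -12, and the AP-1 match TGACTCA. Nfkb2 and Nfkbie had kappaB and AP-1 matches too, and the single Rela window had neither. A match is a stretch of letters and says nothing about binding in these cells.

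Rel encodes c-Rel, the subunit most closely tied to lymphocytes, and lies on chromosome 11 from 23641514 to 23670970 (mm9, as are all gene positions below). It was at 10.4, 8.31 and 14.8 TPM in TB IL-2 and at 22.8, 26.7 and 42.4 TPM in TB IL-2nil. After PMA/I it was at 507, 327 and 398 TPM in TB+ IL-2 and at 1029.9, 604 and 736 TPM in TB+ IL-2nil. In scaled TPM the 4 groups formed 4 separate steps, and no library of a group overlapped the next. In the deposited FPKM both PMA/I groups overlapped, with 157 in TB+ IL-2 library 1 against 151 in TB+ IL-2nil library 2. The unstimulated groups overlapped as well, with 6.39 in TB IL-2 library 3 against 6.17 in TB IL-2nil library 1. Group means were 11.2 ± 3.33, 30.6 ± 10.3, 411 ± 90.9 and 790.0 ± 218 TPM (SD, n = 3 each). On the log2(TPM + 1) scale Rel rose by 5.09 with PMA/I in IL-2 (SE 0.29, adjusted p = 8.06e-07, limma with Benjamini-Hochberg adjustment over all genes tested), which is 34.1-fold on this scale. It rose by 4.66 with PMA/I after IL-2 withdrawal (SE 0.29, adjusted p = 8.2e-07). IL-2 withdrawal was followed by higher Rel both before PMA/I, by 1.36 (SE 0.29, adjusted p = 0.00424), and after it, by 0.93 (SE 0.29, adjusted p = 0.0434). This last call was lost in 13 of 24 alternative settings, with adjusted p = 0.0958 without both libraries whose label and placement differ and adjusted p = 0.389 on TPM with no further scaling (0.53). It was also lost without TB+ IL-2nil library 1 (0.72, adjusted p = 0.16) or 3 (0.96, adjusted p = 0.0741), without TB+ IL-2 library 2 (0.78, adjusted p = 0.138) or 3 (0.92, adjusted p = 0.114), and without TB IL-2 library 1 (adjusted p = 0.0545) or TB IL-2nil library 2 (adjusted p = 0.0569).

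Nfkb1, on chromosome 3 from 135247619 to 135354511, encodes p105, the precursor of the p50 subunit, which itself acts as an inhibitor. Its level was 117, 129 and 85.1 TPM in TB IL-2 and 128, 138 and 101 TPM in TB IL-2nil. With PMA/I it was 690.0, 650.2 and 324 TPM in TB+ IL-2 and 1367, 1098 and 576 TPM in TB+ IL-2nil. Library 3 was the lowest of all 4 groups, and the groups with and without PMA/I did not overlap. Nfkb1 rose by 2.26 in log2 with PMA/I in IL-2 (SE 0.35, adjusted p = 0.000767, limma) and by 2.96 after withdrawal (SE 0.35, adjusted p = 3.98e-05). Withdrawal before PMA/I gave a difference of 0.16 (95% interval -0.62 to 0.93, adjusted p = 0.757) and after PMA/I one of 0.86 (0.08 to 1.63, adjusted p = 0.11). With the library number as a block the latter passed the test (adjusted p = 0.00747), as it did without TB+ IL-2nil library 3 (1.22, adjusted p = 0.0294).

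Nfkb2 encodes p100, the precursor of p52 in the non-canonical pathway. The gene lies on chromosome 19 from 46379227 to 46386580 and overlaps Psd by 4 bases. Its level was 52.7, 17.9 and 25 TPM in TB IL-2 and 57.3, 74.9 and 50.1 TPM in TB IL-2nil. With PMA/I the values were 219, 159 and 145 TPM in TB+ IL-2 and 393, 283 and 296 TPM in TB+ IL-2nil. All PMA/I libraries stood above all unstimulated ones, while TB IL-2 and TB IL-2nil overlapped through TB IL-2 library 1. Nfkb2 rose by 2.53 in log2 with PMA/I in IL-2 (SE 0.34, adjusted p = 0.000289, limma) and by 2.40 after withdrawal (SE 0.34, adjusted p = 0.00012). Before PMA/I it was higher by 1.03 without IL-2 (SE 0.34, adjusted p = 0.0313), a call that was lost in 10 of 24 alternative settings, among them those without TB IL-2 library 2 (0.70, adjusted p = 0.126) or 3 (0.94, adjusted p = 0.0957), without TB IL-2nil library 1 (1.06, adjusted p = 0.0635) or 2 (0.88, adjusted p = 0.103) and without both libraries whose label and placement differ (1.16, adjusted p = 0.0506). After PMA/I the TB+ IL-2nil libraries all lay above those of TB+ IL-2 with a difference of 0.90 (SE 0.34, adjusted p = 0.0818), which passed with the library number as a block (adjusted p = 0.0337) and without TB IL-2 library 1 (adjusted p = 0.0231).

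Relb, on chromosome 7 from 20191566 to 20214787, encodes the partner of p52. It was at 33.7, 9.11 and 14.2 TPM in TB IL-2 and at 55.4, 62.7 and 29.3 TPM in TB IL-2nil. After PMA/I the levels were 123, 79.9 and 79.5 TPM in TB+ IL-2 and 232, 128 and 171 TPM in TB+ IL-2nil. As for Nfkb2, TB IL-2 library 1 reached into the range of TB IL-2nil, and the groups with PMA/I lay apart from those without. Relb rose by 2.42 in log2 with PMA/I in IL-2 (SE 0.43, adjusted p = 0.0017, limma) and by 1.86 after withdrawal (SE 0.43, adjusted p = 0.00333). The latter was no longer called without all 4 libraries of number 3 (1.52, adjusted p = 0.065). Withdrawal before PMA/I gave 1.45 (SE 0.43, adjusted p = 0.0212), and 7 of 24 settings lost this call, among them those without TB IL-2 library 2 (1.06, adjusted p = 0.0876) or 3 (1.35, adjusted p = 0.0672) and without TB IL-2nil library 1 (1.33, adjusted p = 0.0661) or 2 (1.24, adjusted p = 0.0754). Withdrawal after PMA/I gave 0.89 (95% interval -0.06 to 1.84, adjusted p = 0.17).

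Rela encodes p65, the main activating partner of p50, and lies on chromosome 19 from 5637483 to 5648130. Its level was 54.0, 40.2 and 42.6 TPM in TB IL-2 and 67.0, 55.6 and 60.4 TPM in TB IL-2nil. With PMA/I it was 377, 242 and 176 TPM in TB+ IL-2 and 615, 335 and 363 TPM in TB+ IL-2nil. In scaled TPM the unstimulated groups lay side by side without overlap, and both PMA/I groups lay far above them. In the deposited FPKM the unstimulated groups overlapped, with 20.5 in TB IL-2 library 1 against 15.3 in TB IL-2nil library 2. Rela rose by 2.45 in log2 with PMA/I in IL-2 (SE 0.29, adjusted p = 0.000133, limma) and by 2.77 after withdrawal (SE 0.29, adjusted p = 1.74e-05). The effect of withdrawal was 0.42 before PMA/I (95% interval -0.22 to 1.06, adjusted p = 0.27) and 0.74 after it (0.10 to 1.38, adjusted p = 0.0941). The latter passed with the library number as a block (adjusted p = 0.0147) and without TB+ IL-2 library 1 (1.03, adjusted p = 0.0296).

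**Figure D1:**
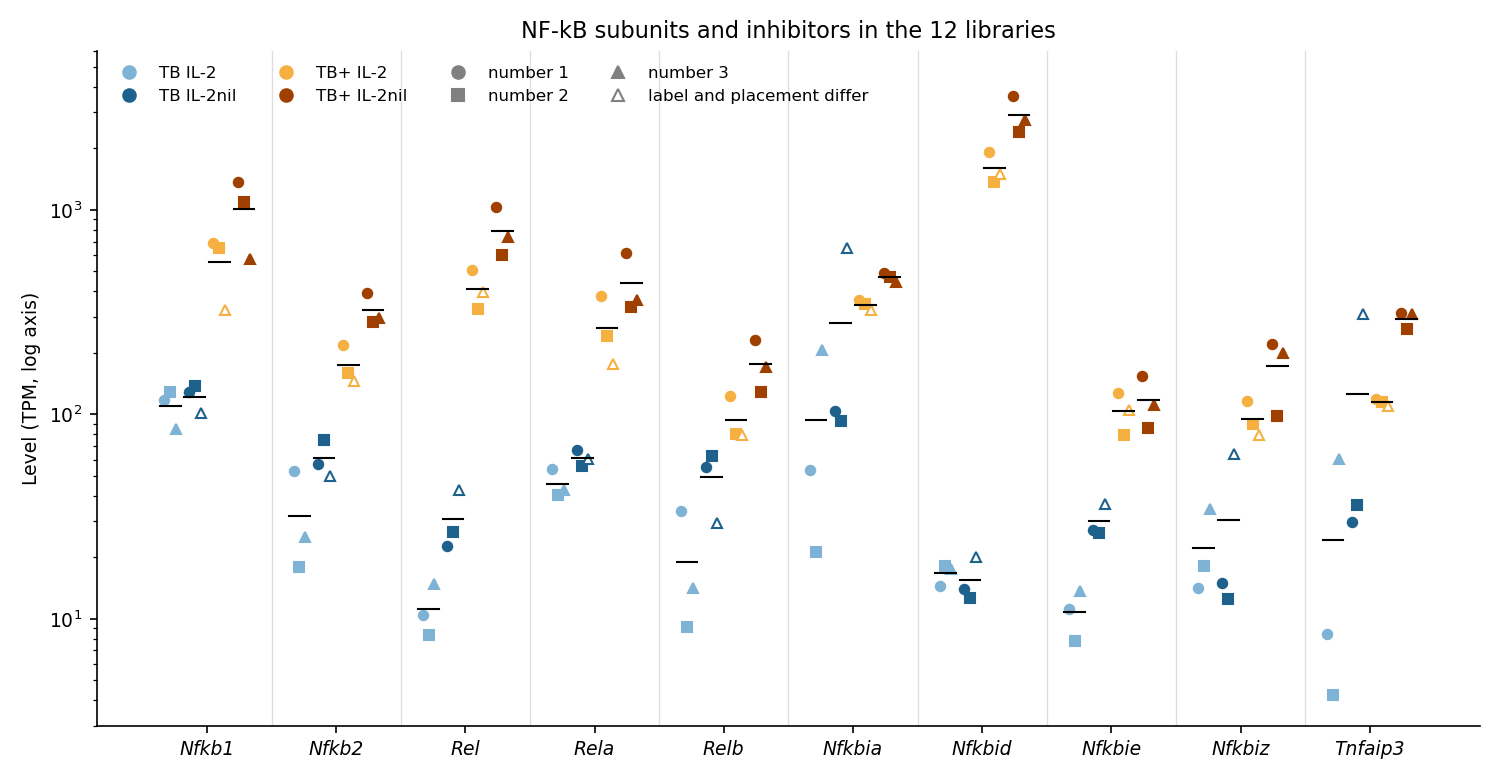
Levels of the 10 genes in the 12 libraries in TPM on a log axis. Colours give the group, symbols the library number, open symbols the 2 libraries whose label and placement differ, and black lines the means of 3 libraries. Nfkbid and Rel show the widest gaps between unstimulated and PMA/I libraries, while library 3 of both unstimulated groups stands far above libraries 1 and 2 for Nfkbia and Tnfaip3.

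Among the inhibitors, Nfkbid showed the largest response of all 10 genes. It encodes IkappaBNS, a nuclear IkappaB protein that binds p50 dimers on DNA, and lies on chromosome 7 from 31206751 to 31213765. It was at 14.5, 18.2 and 17.6 TPM in TB IL-2 and at 14.0, 12.6 and 20 TPM in TB IL-2nil. After PMA/I it was at 1919.6, 1372 and 1505 TPM in TB+ IL-2 and at 3619, 2403 and 2738 TPM in TB+ IL-2nil. The unstimulated groups overlapped, and the PMA/I groups lay apart from them and, in scaled TPM, from each other. In the deposited FPKM the highest TB+ IL-2 value was 595 and the lowest TB+ IL-2nil value 599. Nfkbid rose by 6.48 in log2 with PMA/I in IL-2 (SE 0.22, adjusted p = 1.52e-08, limma), or 89.4-fold on this scale, and by 7.47 after withdrawal (SE 0.22, adjusted p = 3.98e-09), or 177-fold. By the size of the rise it ranked 25 of 12442 genes in both comparisons. Withdrawal gave a difference of -0.13 before PMA/I (95% interval -0.61 to 0.35, adjusted p = 0.674) and a rise of 0.86 after PMA/I (SE 0.22, adjusted p = 0.0182). The rise of 0.86 was not called without both libraries whose label and placement differ (0.82, adjusted p = 0.0571), under quantile normalization (0.77, adjusted p = 0.0614) or on TPM with no further scaling (0.47, adjusted p = 0.351). It was also lost without TB+ IL-2nil library 1 (0.70, adjusted p = 0.0729) and without TB+ IL-2 library 2 (0.76, adjusted p = 0.0673) or 3 (0.82, adjusted p = 0.0647).

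Nfkbie, on chromosome 17 from 45692665 to 45700118, encodes IkappaB epsilon, a cytoplasmic inhibitor of c-Rel and RelA dimers. Its level was 11.1, 7.81 and 13.7 TPM in TB IL-2 and 27.3, 26.3 and 36.3 TPM in TB IL-2nil. With PMA/I it was 127, 79.4 and 105 TPM in TB+ IL-2 and 154, 85.8 and 111 TPM in TB+ IL-2nil. The unstimulated groups were apart and the PMA/I groups overlapped. Nfkbie rose by 3.15 in log2 with PMA/I in IL-2 (SE 0.27, adjusted p = 1.31e-05, limma), by 1.91 with PMA/I after withdrawal (SE 0.27, adjusted p = 0.000118) and by 1.40 with withdrawal before PMA/I (SE 0.27, adjusted p = 0.00231). Withdrawal after PMA/I gave 0.16 (95% interval -0.43 to 0.74, adjusted p = 0.72).

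Nfkbiz encodes IkappaB zeta, a nuclear protein that works with p50 on secondary response genes, and lies on chromosome 16 from 55811488 to 55839012. It was at 14.1, 18.2 and 34.5 TPM in TB IL-2 and at 14.9, 12.5 and 63.8 TPM in TB IL-2nil, so that library 3 was the highest of both groups. After PMA/I it was at 116, 89.5 and 79.1 TPM in TB+ IL-2 and at 221, 98.4 and 199 TPM in TB+ IL-2nil. The groups with PMA/I lay above those without. Nfkbiz rose by 2.12 in log2 with PMA/I in IL-2 (SE 0.55, adjusted p = 0.0123, limma) and by 2.77 after withdrawal (SE 0.55, adjusted p = 0.00121). Withdrawal gave 0.14 before PMA/I (95% interval -1.07 to 1.36, adjusted p = 0.865), which turned to -0.57 without TB IL-2nil library 3, and 0.79 after PMA/I (-0.42 to 2.00, adjusted p = 0.332).

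Nfkbia encodes IkappaB alpha, the fast inhibitor that NF-kB itself restores, and lies on chromosome 12 from 56590398 to 56593634. It was at 53.6, 21.3 and 206 TPM in TB IL-2 and at 104, 92.7 and 648 TPM in TB IL-2nil. With PMA/I it was at 360.4, 346 and 323 TPM in TB+ IL-2 and at 489, 467 and 446 TPM in TB+ IL-2nil. The PMA/I groups were tight, while library 3 of TB IL-2nil exceeded every PMA/I library. Nfkbia rose by 2.44 in log2 with PMA/I in IL-2 (SE 0.79, adjusted p = 0.0332, limma), but 9 of 24 settings lost the call, among them quantile normalization (2.16, adjusted p = 0.0704), no filter on low values (adjusted p = 0.0935) and the settings without TB IL-2 library 1 (2.34, adjusted p = 0.0873) or 2 (1.69, adjusted p = 0.116) or without any 1 of the 3 TB+ IL-2 libraries (adjusted p = 0.0815, 0.0795 and 0.0633). After withdrawal the difference was 1.34 (SE 0.79, adjusted p = 0.163), and leaving out 1 library gave 0.84 (adjusted p = 0.42, without TB IL-2nil library 2) to 2.24 (adjusted p = 0.0166, without TB IL-2nil library 3). Withdrawal before PMA/I gave 1.55 (SE 0.79, adjusted p = 0.14). Leaving out 1 library gave 0.65 (adjusted p = 0.478, without TB IL-2nil library 3) to 2.41 (adjusted p = 0.0272, without TB IL-2 library 3), with 0.80 (adjusted p = 0.453) without TB IL-2 library 2, and it was 0.65 (adjusted p = 0.504) without both libraries whose label and placement differ. Withdrawal after PMA/I gave 0.44 (95% interval -1.29 to 2.18, adjusted p = 0.73). The fit pools the spread over all 4 groups, so this interval carries the wide spread of the unstimulated libraries. The groups compared were at 343 ± 18.7 TPM in TB+ IL-2 and 467 ± 21.7 TPM in TB+ IL-2nil after scaling (SD, n = 3 each). In the deposited FPKM they overlapped, at 112, 113 and 125 in TB+ IL-2 and 102, 116 and 119 in TB+ IL-2nil. Over all settings the difference of 0.44 ran from 0.05 to 0.54.

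Tnfaip3 encodes A20, a ubiquitin-editing enzyme that ends signalling upstream of the IkappaB kinase. It lies on chromosome 10 from 18720716 to 18735463. It was at 8.38, 4.26 and 60.6 TPM in TB IL-2 and at 29.9, 36.1 and 308 TPM in TB IL-2nil. With PMA/I it was at 119, 115 and 109.6 TPM in TB+ IL-2 and at 312, 262 and 308 TPM in TB+ IL-2nil. As for Nfkbia, TB IL-2nil library 3 reached the level of TB+ IL-2nil without PMA/I. Tnfaip3 rose by 3.0 in log2 with PMA/I in IL-2 (SE 0.92, adjusted p = 0.0261, limma), a call lost in 7 of 24 settings, among them those without TB IL-2 library 2 (2.27, adjusted p = 0.0927), without TB IL-2 library 1 (2.68, adjusted p = 0.0853), without any 1 TB+ IL-2 library (adjusted p = 0.0666, 0.0658 and 0.0535) or without a filter on low values (adjusted p = 0.0847). After withdrawal the difference was 2.06 (SE 0.92, adjusted p = 0.0711), which passed with the library number as a block (adjusted p = 0.0285), without TB IL-2 library 3 (adjusted p = 0.0269), without TB IL-2nil library 3 (3.12, adjusted p = 0.00615), with median of ratios scaling (2.45, adjusted p = 0.0384) and without both libraries whose label and placement differ (3.11, adjusted p = 0.00969). It was 1.45 (adjusted p = 0.225) without TB IL-2nil library 1 and 1.59 (adjusted p = 0.207) without library 2 of that group. Withdrawal before PMA/I gave 2.29 (SE 0.92, adjusted p = 0.0676), which passed with the block (adjusted p = 0.0253), without TB IL-2 library 3 (3.33, adjusted p = 0.0113) and without TB IL-2nil library 1 (2.88, adjusted p = 0.046). It was 1.23 (adjusted p = 0.238) without TB IL-2nil library 3, 1.56 (adjusted p = 0.237) without TB IL-2 library 2 and 1.23 (adjusted p = 0.268) without both libraries whose label and placement differ. After PMA/I all 3 TB+ IL-2nil libraries lay above those of TB+ IL-2 with a difference of 1.35 (SE 0.92, adjusted p = 0.32).

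These values of Nfkbia, Tnfaip3 and Nfkbiz set library 3 of each unstimulated group apart. In TB IL-2, library 3 exceeded the mean of libraries 1 and 2 by 3.13 in log2 for Tnfaip3, 2.57 for Nfkbia and 1.06 for Nfkbiz, at ranks 29, 35 and 103 of 12442 genes. In TB IL-2nil the same differences were 3.19, 2.71 and 2.14, at ranks 44, 49 and 59. For the subunits they ran from -0.52 to 0.62 in TB IL-2 and from -0.98 to 0.76 in TB IL-2nil, and for Nfkbid they were 0.11 and 0.56. Several immediate early genes stood apart in these libraries too, with Fosb at 4.10, Egr1 at 3.27 and Fos at 2.82 in TB IL-2 and Dusp1 at 2.69 and Fos at 2.04 in TB IL-2nil. Il2, which is induced through the T cell receptor, did not, at -1.16 and -1.33, nor did Egr2, at 0.24 and -0.18. Both were near the floor, however. No unstimulated library exceeded 4.17 TPM for Il2 or 1.27 TPM for Egr2, so these differences say little. Nr4a1 was at 1.42 in TB IL-2 and at -0.07 in TB IL-2nil, and Ier2 at 1.06 and 0.69. What sets library 3 apart was not tested. In a setting chosen after seeing the data, the fit was repeated without both unstimulated libraries of number 3. Nfkbia and Tnfaip3 then differed by 3.30 and 4.04 with PMA/I in IL-2, by 2.23 and 3.11 with PMA/I after withdrawal, and by 1.51 and 2.27 with withdrawal before PMA/I. These libraries were left out for the values of the same genes, so a smaller spread follows from the choice and the fit is no test of them. Tnfaip3 after PMA/I, at 1.35 with and without these libraries, was past the threshold in none of the other settings, and was 1.27 (adjusted p = 0.0613, limma) without all 4 libraries of number 3.

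**Figure D2:**
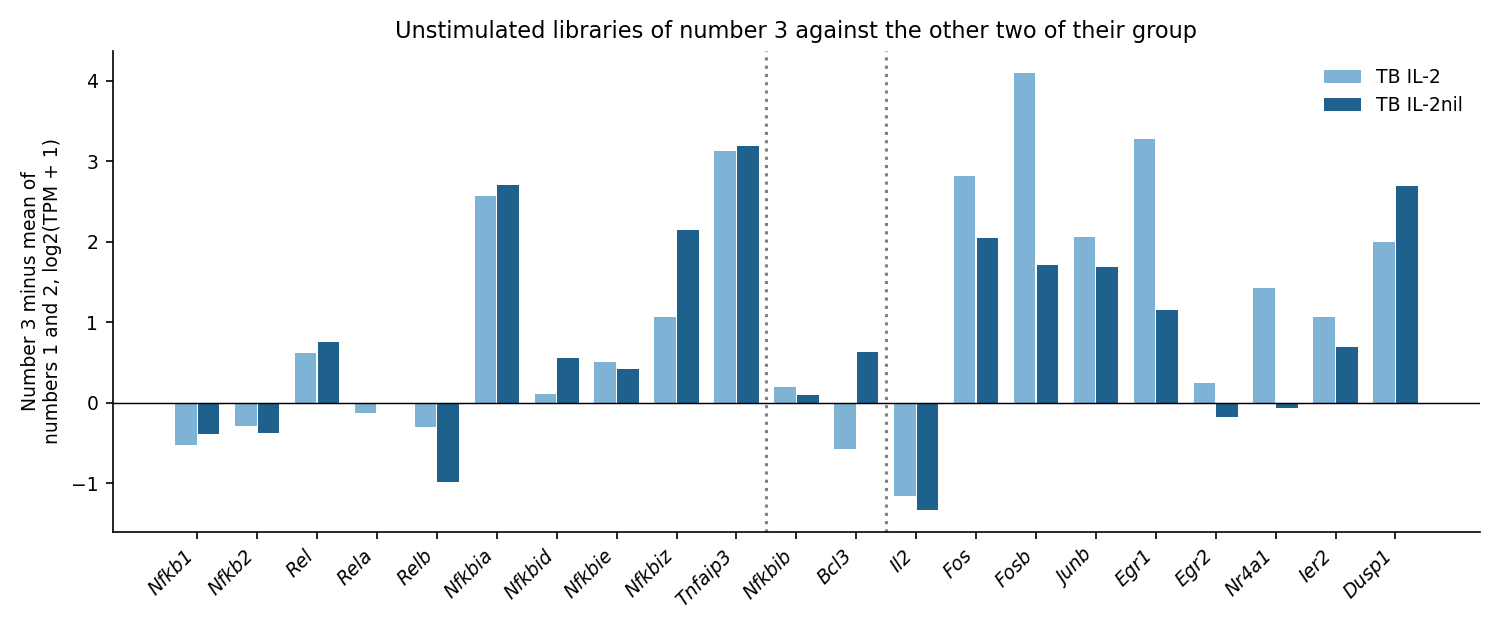
Library 3 minus the mean of libraries 1 and 2 in log2(TPM + 1), for TB IL-2 (light bars) and TB IL-2nil (dark bars). The 10 genes, the inhibitors Nfkbib and Bcl3, and the early response genes are divided by dotted lines. Tnfaip3, at 3.13 and 3.19, and Nfkbia, at 2.57 and 2.71, are the highest of the 10 genes in both groups.

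Counted together, all 10 genes rose with PMA/I in the presence of IL-2, each by more than 3-fold. Of all genes tested, 11.8% rose, 3.94% rose by more than 3-fold and 23.3% fell (limma). The median of the 10 genes was 2.49, against -0.22 over all genes tested. In all 10 genes every TB+ IL-2 library lay above every TB IL-2 library, which held for 16.6% of all genes. With the libraries in the groups of their labels, none of the 10 was called, although all 10 had an unadjusted p under 0.05. The differences were then 1.71 to 4.43 with an adjusted p of 0.0691 to 0.332, and 0.241% of all genes rose. Without both libraries whose label and placement differ, all 10 were called, 10 of them over 3-fold, and 11.1% of all genes rose. The split of all genes called moved with the scaling, from 1471 higher and 2901 lower to 2076 and 1822 with median of ratios scaling and 1688 and 1953 with quantile normalization. The median of all genes was then -0.03 and -0.10, while that of the 10 genes was 2.74 and 2.36.

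After IL-2 withdrawal, 8 of the 10 genes rose with PMA/I and all 8 by more than 3-fold, the exceptions being Nfkbia and Tnfaip3. Of all genes, 20.1% rose, 7.78% by more than 3-fold, and 41.1% fell. The median of the 10 genes was 2.58 against -0.38. The same 8 genes had no overlap between the groups, as had 21.8% of all genes. By the labels 1 gene was called, Nfkbiz (2.67, adjusted p = 0.043, limma), against 1.92% of all genes, and all 10 had an unadjusted p under 0.05. Without both libraries all 10 were called, 9 of them over 3-fold, where 17.8% of all genes rose. With the library number as a block Tnfaip3 was added, for 9 of 10, where 22.8% of all genes rose. The split of all genes called was 2501 higher and 5113 lower, 3492 and 3516 with median of ratios scaling, 2910 and 3787 with quantile normalization and 1302 and 6108 on TPM with no further scaling. Under these 3 scalings the median of all genes was -0.08, -0.14 and -0.78 and that of the 10 genes was 2.98, 2.26 and 2.03.

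Before PMA/I, IL-2 withdrawal raised 4 of the 10 genes, Nfkb2, Rel, Relb and Nfkbie, and lowered none. Of all genes 22.3% rose and 17.3% fell, so that the share of the 10 is not far from that of all genes. The median of the 10 genes was 1.2 against 0.13. In scaled TPM, Rel, Rela and Nfkbie, 3 of the 10 genes, were higher in every TB IL-2nil library than in every TB IL-2 library, as were 30.4% of all genes. Of these 3 only Nfkbie was so in the deposited FPKM. By the labels none was called (limma, 4 at an unadjusted p under 0.05), where 0.0482% of all genes rose. Without both libraries Rel, Relb and Nfkbie were called, and 17.9% of all genes rose. The count fell to 2 without TB IL-2 library 2 or without TB IL-2nil library 2. Rel and Nfkbie kept their call in every setting but the labels. With the library number as a block Tnfaip3 was added, for 5 of 10, where 29.5% of all genes rose. Cell type markers moved in this comparison too, with all 4 B cell markers higher, Cd4 higher by 1.3 (SE 0.18, adjusted p = 0.000451, limma) and Cd28 by 1.28 (SE 0.24, adjusted p = 0.00218), and their part in the result was not tested.

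After PMA/I, 2 of the 10 genes were higher without IL-2, Rel and Nfkbid. Of all genes 8.40% rose and 12.9% fell. The median of the 10 genes was 0.86 against 0.04. In scaled TPM, every TB+ IL-2nil library lay above every TB+ IL-2 library in 6 genes, as in 18.3% of all genes. These were Nfkb2, Rel, Relb, Nfkbia, Nfkbid and Tnfaip3. In the deposited FPKM the groups overlapped for Rel, Relb and Nfkbia, so that this separation depends on the scaling. With the library number as a block, Nfkb1, Nfkb2 and Rela were called beside Rel and Nfkbid, for 5 of 10, while 15.6% of all genes rose. By the labels none was called (limma, 2 at an unadjusted p under 0.05), with 0.0321% of all genes higher, and without both libraries none was called either (2 at an unadjusted p under 0.05), with 2.63% higher. The count was also 0 without TB+ IL-2 library 2 or 3 or TB+ IL-2nil library 1, and 1 without TB IL-2nil library 2. The split of all genes called was 1045 higher and 1599 lower, and 58 and 1428 on TPM with no further scaling, which shifts the median of all genes from 0.04 to -0.23 and that of the 10 genes from 0.86 to 0.46, with none of the 10 called. Of the 4 B cell markers 3 were higher here as well, Cd79b by 1.07 (SE 0.31, adjusted p = 0.0333, limma) and Cd79a by 0.88 (SE 0.28, adjusted p = 0.0456), as was Cd4 by 0.82 (SE 0.18, adjusted p = 0.0103), and their part was not tested.

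The interaction compares the response to PMA/I without IL-2 with that in IL-2. None of the 10 genes was called by limma, and Nfkbid and Nfkbie had an unadjusted p under 0.05. Of all genes 4.23% were called in either direction. These were 331 higher and 195 lower, 427 and 125 with median of ratios scaling, 718 and 760 with the library number as a block, and 1 and 0 on TPM with no further scaling. Leaving out 1 library gave from 63 and 21 (without TB IL-2nil library 2) to 640 and 662 (without TB+ IL-2nil library 3). The response was higher by 0.99 without IL-2 for Nfkbid (SE 0.31, adjusted p = 0.0931) and lower for Nfkbie, with a difference of -1.25 (SE 0.38, adjusted p = 0.0867). With the library number as a block Nfkbie was called (adjusted p = 0.0209), 1 of 10 genes, where 11.9% of all genes were, and it was called with quantile normalization too (-1.39, adjusted p = 0.048). By the labels no gene of the 10 was called or had an unadjusted p under 0.05, where 0.00% of all genes were called. Without both libraries none was called (limma, 2 at an unadjusted p under 0.05), where 0.0324% of all genes were. The intervals of the other genes were wide, such as -3.79 to 1.91 for Tnfaip3 and -1.34 to 0.48 for Rel, so that differences of response of these sizes are not excluded.

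**Figure D3:**
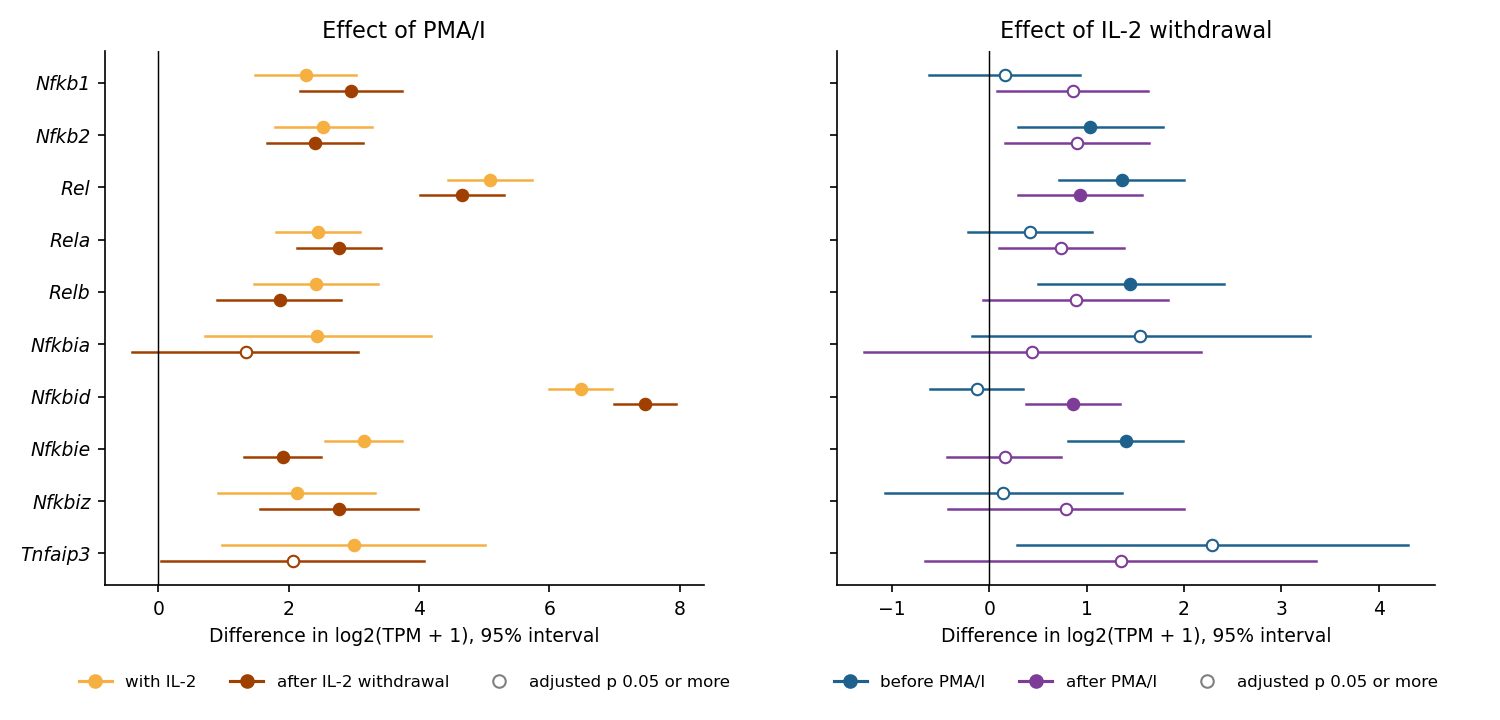
Differences in log2(TPM + 1) with 95% intervals for the 10 genes, on the left for PMA/I with IL-2 and after IL-2 withdrawal, on the right for IL-2 withdrawal before and after PMA/I. Filled points have an adjusted p under 0.05 (limma). Nfkbid at 6.48 and 7.47 and Rel at 5.09 and 4.66 lie to the right of the other genes on the left side, and Nfkbia and Tnfaip3 have the widest intervals.

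The make-up of the subunit transcripts shifted toward Rel after PMA/I, as a description with no test. The 5 subunits summed to 268, 204 and 182 TPM in TB IL-2 and to 330.2, 358 and 284 TPM in TB IL-2nil. After PMA/I they summed to 1916, 1458 and 1122 TPM in TB+ IL-2 and to 3637, 2448 and 2141 TPM in TB+ IL-2nil. The share of Rel in this sum was 3.89, 4.07 and 8.16% in TB IL-2 and 6.91, 7.45 and 14.9% in TB IL-2nil, and it was 26.5, 22.4 and 35.5% in TB+ IL-2 and 28.3, 24.7 and 34.4% in TB+ IL-2nil. Rel was thus the smallest of the 5 in TB IL-2 libraries 1 and 2, where library 3 had slightly less Relb, and the largest in library 3 of both PMA/I groups, where it passed Nfkb1. The share of Nfkb1 was 51.2 ± 10.4% in TB IL-2, 37.7 ± 1.66% in TB IL-2nil, 36.5 ± 7.86% in TB+ IL-2 and 36.4 ± 9.05% in TB+ IL-2nil (SD, n = 3 each). In TB+ IL-2 libraries the order of mean levels among the 10 genes was Nfkbid, Nfkb1, Rel, Nfkbia, Rela, Nfkb2, Tnfaip3, Nfkbie, Nfkbiz and Relb. Only Nfkbid and Nfkb1, and Nfkb2 and Tnfaip3, were neighbours in this order whose ranges did not overlap. In TB IL-2 the order began with Nfkb1, Nfkbia and Rela and ended with Rel and Nfkbie, and every pair of neighbours overlapped.

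The summed transcripts of the inhibitors were dominated by Nfkbid after PMA/I. These sums and ratios count transcripts and do not measure inhibition. The summed level of the 5 inhibitors was 102, 69.8 and 333 TPM in TB IL-2 and 189.8, 180.1 and 1076 TPM in TB IL-2nil. With PMA/I it was 2642, 2003 and 2122 TPM in TB+ IL-2 and 4796, 3315 and 3803 TPM in TB+ IL-2nil. Nfkbid made up 68.5 to 75.5% of this sum in the 6 PMA/I libraries and 1.86 to 26.1% in the 6 unstimulated ones. Inhibitor per subunit transcripts came to 0.379, 0.341 and 1.83 in TB IL-2, to 0.575, 0.503 and 3.79 in TB IL-2nil, to 1.38, 1.37 and 1.89 in TB+ IL-2 and to 1.32, 1.35 and 1.78 in TB+ IL-2nil. Without Nfkbid the ratio was 0.252 to 0.532 in libraries 1 and 2 of the unstimulated groups and 0.324 to 0.550 in all 6 PMA/I libraries, so that these ranges overlapped. Library 3 of TB IL-2 and TB IL-2nil lay above them, at 1.73 and 3.72.

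**Figure D4:**
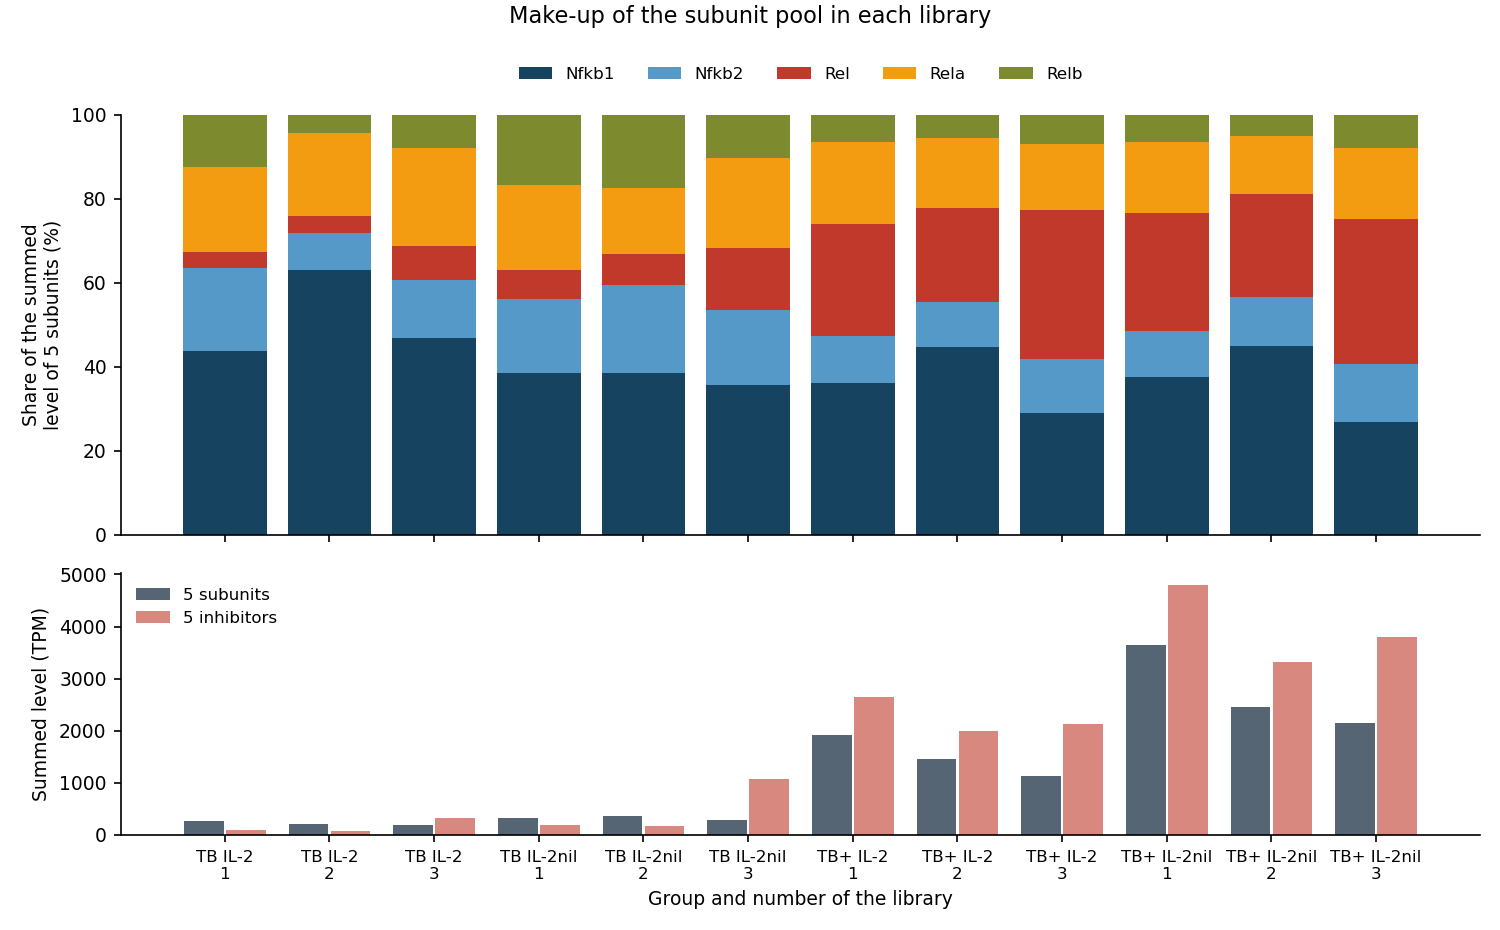
Above, the share of each of the 5 subunits in their summed TPM in each library in percent. Below, the summed TPM of the 5 subunits (grey) and of the 5 inhibitors (red), both by group and library number. The share of Rel (red, above) lies between 22.4 and 35.5% in the 6 PMA/I libraries and between 3.89 and 14.9% in the others.

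Other inhibitors of the IkappaB kind did not all move alike. Nfkbib, which encodes IkappaB beta and overlaps Sirt2, was at 29.3, 28.7 and 33.2 TPM in TB IL-2, at 27.1, 34.6 and 32.7 TPM in TB IL-2nil, at 109, 97.4 and 81.9 TPM in TB+ IL-2 and at 158, 133 and 127 TPM in TB+ IL-2nil. It rose by 1.62 in log2 with PMA/I in IL-2 (SE 0.16, adjusted p = 4.43e-05, limma) and by 2.11 after withdrawal (SE 0.16, adjusted p = 2.91e-06). After PMA/I it was higher by 0.53 without IL-2 (SE 0.16, adjusted p = 0.0395), a call that held in 8 of 24 settings. By the labels this difference was 0.97 (adjusted p = 0.337, limma), and without both libraries whose label and placement differ it was 0.42 (adjusted p = 0.184). Bcl3 encodes a nuclear IkappaB protein that works with p50 and p52, and the gene overlaps Gm16174 and Gm16175. It was at 15.0, 33.3 and 14.7 TPM in TB IL-2 and at 4.37, 7.06 and 8.75 TPM in TB+ IL-2, with no overlap. It fell by 1.45 in log2 with PMA/I in IL-2 (SE 0.39, adjusted p = 0.0139) and was not called after withdrawal (-0.83, adjusted p = 0.0813). The call held in 20 of 24 settings, and by the labels it was lost (-0.99, adjusted p = 0.471).

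The signalling genes upstream of NF-kB, a list of 20, were split in their response to PMA/I. With IL-2, 7 rose and 5 fell, against 11.8% and 23.3% of all genes, and after withdrawal 9 rose and 6 fell, against 20.1% and 41.1%, with medians of 0.20 and 0.22 against -0.22 and -0.38 over all genes. Traf1, an adaptor of TNF receptors, rose by 1.87 in IL-2 (SE 0.29, adjusted p = 0.000716, limma), and Tab1, a partner of the kinase TAK1, fell by 1.87 after withdrawal (SE 0.20, adjusted p = 2.07e-05). Before PMA/I, withdrawal raised 9 of the 20 and lowered none, where 22.3% of all genes rose and 17.3% fell, and the B cell markers, Cd4 and Cd28 rose as well. They included Map3k14, the NIK kinase of the non-canonical pathway, with 1.79 (SE 0.31, adjusted p = 0.00134), and Traf1, with 1.53 (SE 0.29, adjusted p = 0.0022). After PMA/I 7 of the 20 were higher without IL-2, against 8.40% of all genes. Among them was Birc2, which encodes the ubiquitin ligase cIAP1, with 0.86 (SE 0.24, adjusted p = 0.0299, limma), a call that held in 15 of 24 settings. By the labels Birc2 was at 0.04 (adjusted p = 0.989), and without both libraries whose label and placement differ it was at 0.81 (adjusted p = 0.0951).

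Negative regulators made a list of 10, chosen as working with A20 or on the same ubiquitin chains, though Zc3h12a among them encodes an RNase. PMA/I raised 4 and lowered 3 of them both with IL-2 and after withdrawal, where 11.8% and 20.1% of all genes rose and 23.3% and 41.1% fell, with medians of 0.34 and 0.27. Zc3h12a, the RNase regnase-1, rose by 2.35 in IL-2 (SE 0.39, adjusted p = 0.00105, limma), and Tnip2, an A20-binding protein, rose by 1.42 in IL-2 (SE 0.21, adjusted p = 0.000608) and by 2.20 after withdrawal (SE 0.21, adjusted p = 1.08e-05). Cyld, a deubiquitinase, fell by 1.97 after withdrawal (SE 0.23, adjusted p = 3.78e-05), from 67.6 ± 5.42 TPM in TB IL-2nil to 17.0 ± 5.77 TPM in TB+ IL-2nil (SD, n = 3). Withdrawal raised 5 of the 10 before PMA/I, where 22.3% of all genes rose, and 2 of them after it, where 8.40% rose, and lowered none. Tnip1, which encodes the A20 partner ABIN-1, was higher by 1.41 without IL-2 before PMA/I (SE 0.38, adjusted p = 0.013), as was Zc3h12a by 1.41 (SE 0.39, adjusted p = 0.0144). Each call held in 20 of 24 settings. By the labels Tnip1 was at 0.79 (adjusted p = 0.747, limma) and Zc3h12a at 1.52 (adjusted p = 0.229). Without both libraries whose label and placement differ Zc3h12a was at 1.01 (adjusted p = 0.0628). Its levels in TB IL-2nil were 24.1, 21.8 and 53.4 TPM. After PMA/I Tnip2 was higher by 1.06 (SE 0.21, adjusted p = 0.00614) and Otud7b, another deubiquitinase, by 0.65 (SE 0.17, adjusted p = 0.0214, held in 18 of 24 settings). By the labels they were at 1.41 (adjusted p = 0.121, limma) and 0.64 (adjusted p = 0.153). Without both libraries whose label and placement differ Otud7b was at 0.52 (adjusted p = 0.121).

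Of 12 known NF-kB target genes 11 rose with PMA/I in both states and none fell, where 11.8% of all genes rose in IL-2 and 20.1% after withdrawal, with medians of 2.88 in IL-2 and 3.50 after withdrawal. The exception in both was Sod2, which encodes mitochondrial superoxide dismutase. Tnf rose by 5.73 in IL-2 (SE 0.52, adjusted p = 2.17e-05, limma) and by 8.16 after withdrawal (SE 0.52, adjusted p = 9.44e-07). Gadd45b, a stress response gene, rose by 5.39 in IL-2 (SE 0.49, adjusted p = 2.13e-05), and Myc rose by 6.36 after withdrawal (SE 0.48, adjusted p = 2.53e-06). Withdrawal before PMA/I raised 3 and lowered 4 of the 12, where 22.3% of all genes rose and 17.3% fell. Tnf fell by 3.01 (SE 0.52, adjusted p = 0.00144), from 57.0 ± 25 TPM to 6.04 ± 2.89 TPM (SD, n = 3), and Myc fell by 2.48 (SE 0.48, adjusted p = 0.0025), from 130.2 ± 78.1 TPM to 19.5 ± 8.45 TPM. Each of these calls held in 23 of 24 settings. By the labels they were lost, with Tnf at -0.26 (adjusted p = 0.986, limma) and Myc at -1.06 (adjusted p = 0.827). The rise of Tnf with PMA/I in IL-2 was lost by the labels too (2.98, adjusted p = 0.647). After PMA/I 3 were higher without IL-2 and none lower, where 8.40% of all genes rose, among them Cd83, an activation marker, by 1.86 (SE 0.34, adjusted p = 0.00381), and Bcl2a1d by 1.43 (SE 0.30, adjusted p = 0.00799). Bcl2a1d is a close copy of Bcl2a1b, so reads can have been split between them and its value is uncertain.

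**Figure D5:**
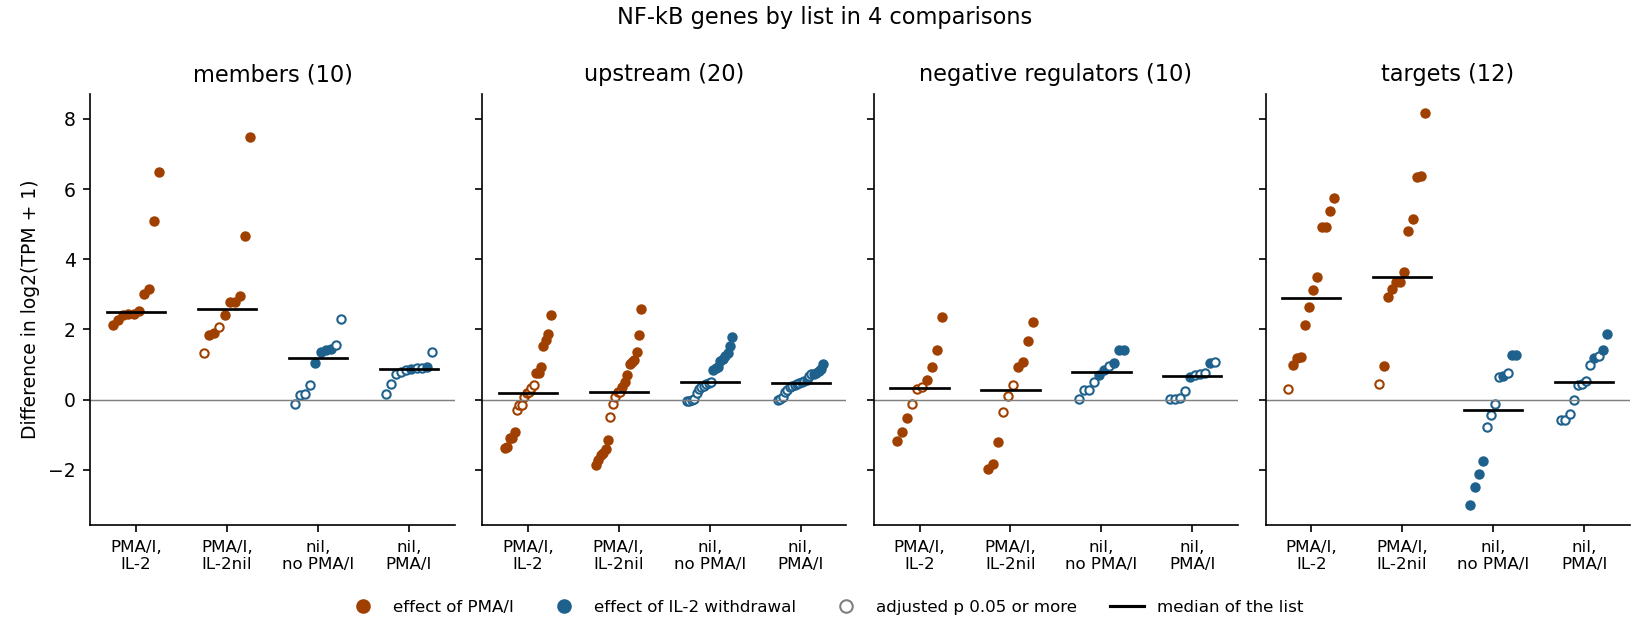
Differences in log2(TPM + 1) for each gene of 4 lists (the 10 genes described here, 20 upstream genes, 10 negative regulators and 12 targets) in 4 comparisons: PMA/I in IL-2, PMA/I after withdrawal, withdrawal without PMA/I and withdrawal with PMA/I. Filled points have an adjusted p under 0.05 (limma) and bars are medians. For PMA/I the medians are 2.49 and 2.58 for the 10 genes and 2.88 and 3.50 for the targets, against 0.20 and 0.22 for the upstream genes.

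Of the 9 early response genes 8 rose with PMA/I in IL-2 and 9 after withdrawal, where 11.8% and 20.1% of all genes rose. Their medians were 5.2 and 7.30, against -0.22 and -0.38 over all genes. Il2, the T cell growth factor, rose by 11.67 in log2 with PMA/I in IL-2 (SE 0.56, adjusted p = 2.01e-07, limma) and by 10.79 after withdrawal (SE 0.56, adjusted p = 2.56e-07). By the labels these were 8.07 (adjusted p = 0.283, limma) and 7.20 (adjusted p = 0.144).

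The genes most like 4 of the 10 across all 12 libraries were found by Pearson's r of log2(TPM + 1) among 8798 genes, as a description. All 12 points share the contrast between PMA/I and unstimulated libraries, which alone gives many genes a high r. For Rel they were Zfp36l1 (r = 0.997), Zswim4 (0.993) and Arl5b (0.993). For Nfkbid they were Slamf7 (0.998), Egr2 (0.998) and Nr4a2 (0.997). Tnfaip3 was closest to Nfkbia (0.981), then to Lin7c (0.934) and Ccdc94 (0.926), and Nfkbiz to Wdr45b (0.977), Eif1 (0.975) and 1810032O08Rik (0.969). Among the 10 genes themselves r was lowest between Nfkb1 and Nfkbia, at 0.59.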

How the data were processed

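RNA-Seq of 12 libraries in 4 groups of 3 was used. The authors deposited FPKM values per gene for each library, and the submitters' processing notes and methods name StringTie 1.3.3 on RefSeq models for them. Reads had been trimmed (Trimmomatic 0.32) and mapped to the mouse build mm9 (HISAT2 2.1.0). The methods name TPM, but the deposited values are headed FPKM and do not sum to 1000000. They hold no read counts, so no counting interval or detection limit can be given, and only relative depth was read from the steps between low values.

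Each library was first made to sum to 1000000 TPM. A gene was kept if any library held it above 1 TPM (12442 of 24439), and the 75th percentiles were then made equal, which gave the scaled TPM used throughout. The log2(TPM + 1) values, which understate changes of low genes, were fitted with limma 3.58.1 (R 4.3.3) to 4 group means with 8 residual degrees of freedom and no block. Calls were at a Benjamini-Hochberg adjusted p under 0.05, and counts over 3-fold are named as such. The fit was tested on simulated data. Python 3.11.15 with numpy 2.4.6, pandas 2.3.3 and matplotlib 3.10.9 did the rest.

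Groups came from the sample labels, except that the libraries labelled TB IL-2nil replicate 3 and TB+ IL-2 replicate 3 were exchanged. Over 465 genes, the columns of these names in the expression table accompanying the study had a rank correlation of 1.0 with the library of the other label. With the next closest library the highest value of any column was 0.9602. So placed, libraries of the same number deviated together from their group means in 18 of 18 pairs (r = 0.101 to 0.531). The numbers come from the labels, which do not say what libraries of a number share, and a fit with the number as a replicate block (6 residual degrees of freedom) is given where it changes a call.

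The named genes were all 10 subunits and inhibitors, Nfkbib and Bcl3, for each list the 2 genes with the largest change among those called in a comparison, and for Rel, Nfkbid, Nfkbiz and Tnfaip3 the 3 genes most like them. An upstream gene that this rule also names is not reported here, so the upstream genes named are not all those with the largest changes. The members and lists were chosen with earlier results of these data known. Sod2, Il2, Fosb, Egr1, Egr2, Fos, Dusp1, Nr4a1 and Ier2 were also named where a result turned on them. The alternatives were the labels as they stand, both exchanged libraries left out, a pseudocount of 0.1, quantile normalization, median of ratios scaling, TPM with no further scaling, no filter, a filter at 5 TPM, limma-trend with a robust prior, the replicate block and each library left out in turn. Leaving out the unstimulated or all 4 libraries of number 3 was added after seeing the data. Gene positions are GENCODE M1 on mm9, and promoter sequences are RefSeq on GRCm38.p6 and were not combined with mm9 positions.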

Additional observations from a re-analysis of the deposited data

Results flagged for a closer look

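Among the lists around NF-kB, 3 genes differed between the states with and without IL-2 in their response to PMA/I, by the interaction term of limma. They were 1 of 20 upstream genes and 2 of 12 targets, with none of the 10 negative regulators or the 9 early response genes, where 4.23% of all genes were called. Traf5, an adaptor of TNF receptors, changed by -0.17 with PMA/I in IL-2 (adjusted p = 0.517) and fell by 1.40 after withdrawal (adjusted p = 7.66e-05). Its interaction was -1.24 (SE 0.26, adjusted p = 0.0307), a larger fall without IL-2. The rise with PMA/I was larger without IL-2 for Myc, with 3.73 (SE 0.68, adjusted p = 0.0209). So it was for Bcl2l1, which encodes the survival factor BCL-xL, with 2.17 (SE 0.37, adjusted p = 0.0179). Mean levels in TB IL-2, TB IL-2nil, TB+ IL-2 and TB+ IL-2nil were 12.2 ± 3.10, 29.5 ± 3.0, 10.6 ± 1.51 and 10.5 ± 0.0212 TPM for Traf5 (SD, n = 3 each). They were 50.1 ± 12.2, 13.9 ± 2.62, 97.8 ± 10.5 and 136 ± 53.3 TPM for Bcl2l1. Without both libraries whose label and placement differ the adjusted p was 0.104 for Traf5, 0.0751 for Myc and 0.0738 for Bcl2l1, and by the labels it was 0.914 for each. With the library number as a block it was 0.0203, 0.014 and 0.0101. These calls held in 10 of 24 settings for Traf5, 12 for Myc and 17 for Bcl2l1.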

How the results depend on the processing

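Over 24 settings, 1200 member values were recomputed. Of these 1081 kept their direction and side of the threshold, 72 lost and 28 gained a call, and 19 changed sign, none of them a called value. Leaving aside the labels as they stand, 1055 of 1150 were kept.

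By the labels, counts of genes called fell to 0 for PMA/I in IL-2 (0 over 3-fold), 1 after withdrawal (1 over 3-fold), and 0 for withdrawal before and after PMA/I. The share of Rel moved to 16.6% in TB IL-2nil and 21.3% in TB+ IL-2, and that of Nfkb1 to 35.4% in TB IL-2nil. For withdrawal before PMA/I the count of 4 was 2 without a filter, 2 to 4 without 1 library and 5 with the replicate block. For withdrawal after PMA/I the count of 2 was 0 without both exchanged libraries, 1 with a pseudocount of 0.1, 0 with quantile normalization, 0 on unscaled TPM, 1 without a filter, 0 without all 4 libraries of number 3 and 0 to 3 without 1 library. With the replicate block it was 5, and the interaction count was 1 with the block and 1 with quantile normalization. The block changed 6 calls, all given above, and no other of the 50. The cause was not tested.

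Signs changed as follows. Withdrawal before PMA/I: Nfkb1 was -0.02 to 0.29 without 1 library. Nfkbid was 1.93 by the labels and -0.31 to 0.00 without 1 library. Nfkbiz was -0.57 without both exchanged libraries, -0.21 without the unstimulated libraries of number 3 and -0.21 without all of number 3, and -0.57 to 0.56 without 1 library. Withdrawal after PMA/I: Nfkbie was -0.24 on unscaled TPM and -0.06 to 0.36 without 1 library. Interaction: Nfkb2 was 0.02 with median of ratios, 0.01 without a filter and -0.56 to 0.19 without 1 library. Rela was -0.16 on unscaled TPM, and Tnfaip3 was 0.09 without both exchanged libraries and -1.98 to 0.12 without 1 library.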
